A study of Drosophila melanogaster with 14 samples.

Results

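The insertions of the DNA transposon pogo were followed across 14 genomic DNA libraries of one *Drosophila melanogaster* line. An insertion was taken as pogo where the family name in the list of called insertions was exactly pogo. This gave 804 of 20426 listed insertions from 123 transposable element (TE) families. Several listed break points can belong to one inserted copy, so insertions of one family that lay within 500 bp of each other over all libraries were joined into one locus, which left 66 pogo loci of 5277 loci in all. The family was chosen by its loci and read support in these same lists, so its counts and levels are a description, and the tests given for it are no independent support.

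Pogo is a cut-and-paste element of the Tc1/mariner superfamily. It carries short terminal inverted repeats and a gene for a transposase, which excises the element and inserts it at a new TA dinucleotide. It gave its name to the pogo-like transposons, a group from which genes such as human CENP-B are thought to descend. Unlike the endogenous retroviruses that the piRNA pathway silences in follicle cells, it needs no RNA intermediate. Piwi is the nuclear protein that, guided by piRNAs, silences TEs.

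All libraries came from a line in the w background that carries tj-GAL4, tubP-GAL80[ts] and sh-piwi. A hairpin against *piwi* is there driven from the traffic jam promoter in the somatic follicle cells of the ovary, and a temperature-sensitive GAL80 holds the driver back at 20°C. The groups were 1 piwi-sKD pool (piwi somatic knockdown, with a move to 25°C for the last 5 days in the labels), 12 single adult flies after piwi-sKD, and 1 no-KD pool of embryos of 3 to 17 h kept at 20°C. By its label the piwi-sKD pool is of adult flies, but the study's methods speak of second-generation embryos. The study describes the 12 flies as second-generation progeny too, so the 25°C shift was given to their ancestors and not to the sequenced animals. Single flies were sequenced after piwi-sKD alone. A pool is a single library, and what differs between the pools was therefore measured without replicates. The flies were read at 125 nt and the no-KD pool at 100 nt. By the study's methods the flies were sequenced at another site than the pools. A contrast of flies with pools is therefore also one of sequencing site and read length. Support is the number of reads behind an insertion. It summed to 47733 reads in the piwi-sKD pool, to 1774 to 5901 reads in a fly and to 38580 reads in the no-KD pool. A contrast of flies with pools is therefore one of depth too. The lists start at 2 reads per insertion, so a locus that is not listed may still have had 1 read.

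To see how much of each library pogo took up, its loci and reads were counted per library. The piwi-sKD pool held 56 pogo loci with 2836 reads, the single flies held 19 to 35 loci with 55 to 182 reads, and the no-KD pool held 55 loci with 2280 reads. Pogo supplied 5.94% of the supporting reads of the piwi-sKD pool and 5.91% of those of the no-KD pool. In the flies this share was 3.38% ± 0.560 (SD, n = 12). Of all loci of a library, pogo was 1.55% in the piwi-sKD pool, 3.40% ± 0.560 in the flies (SD, n = 12) and 1.81% in the no-KD pool. The pools thus had nearly the same pogo share of reads, and the flies a lower share of reads but a higher share of loci.

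**Figure D1:**
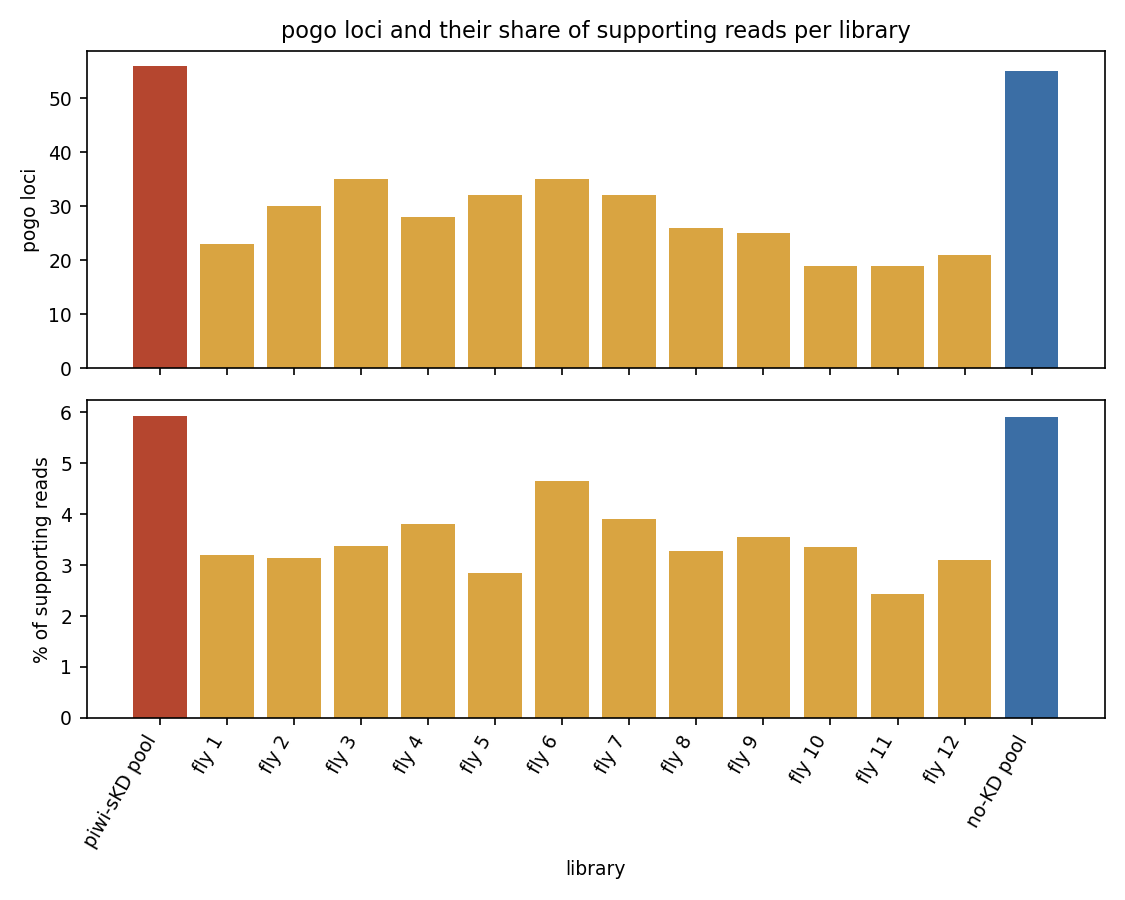
Bars give, for each library on the horizontal axis, the number of pogo loci (top) and the percent of all supporting reads that pogo took (bottom). Both pools held over 50 pogo loci (56 in the piwi-sKD pool, 55 in the no-KD pool), and the 12 flies held 19 to 35.

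A fly held 27.1 ± 5.82 pogo loci (SD, n = 12), with a median of 27.0. Flies 3 and 6 held the most (35 each), and flies 10 and 11 the fewest (19 each). Flies with more loci of other families also had more pogo loci, with Pearson's r = 0.733 (permutation test, two-sided, p = 0.00698, adjusted p = 0.00698) and Spearman's rho = 0.773 (p = 0.00472, adjusted p = 0.00698, n = 12 flies). Without the 2 flies farthest from the median number of other loci, r was 0.704 (permutation p = 0.0220) and rho was 0.761 (permutation p = 0.0133, n = 10). Both counts of a fly come from one library and share its depth. The number of pogo loci of a fly cannot be read apart from how deeply that fly was sequenced.

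The comparison of the pools asked which pogo loci appeared in the piwi-sKD pool only. Of the 57 pogo loci listed in a pool, 54 were in both pools, or 94.7% (Wilson 95% interval 85.6 to 98.2), against 2212 of 4341 loci of all other families (51.0%, 49.5 to 52.4). Over the 23 other DNA transposon families it was 445 of 918 (48.5%, 45.3 to 51.7). The intervals allow for error in the count of loci alone, and each pool is a single library. Reads of the same molecule also cannot be told from reads of different ones. Among 102 families with at least 10 loci, pogo ranked 2 by this share, after hobo (98.0%), another DNA transposon, and ahead of the non-LTR element jockey (92.9%). The median family was at 50.0%.

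Sharing moved with support. A pogo locus had a median of 49.0 reads in the piwi-sKD pool against 45.0 in the no-KD pool, against 4 and 5 reads for loci of other families in the same pools. Only 5.36% of pogo loci of the piwi-sKD pool and 1.82% of those of the no-KD pool stood at 2 reads, compared with 35.0% and 32.5% of the other loci. With at least 20 reads over both pools, 48 of 48 pogo loci and 1055 of 1055 other loci were in both. Under 20 reads, 6 of 9 pogo loci were in both (66.7%, Wilson 95% interval 35.4 to 87.9), against 1157 of 3286 other loci (35.2%, 33.6 to 36.9). The share also moved with the gap that joins insertions, since at 20 bp 124 of 247 pogo loci were in both pools (50.2%, 44.0 to 56.4), against 1882 of 6850 other loci (27.5%, 26.4 to 28.5).

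The piwi-sKD pool alone held 2 pogo loci and the no-KD pool alone held 1. The ratio was 2 (exact conditional 95% interval 0.104 to 118), against 1354 and 775 loci and a ratio of 1.75 (1.60 to 1.91) for all other families. With 3 pool-specific loci pogo was under the minimum of 5 set for a test per family. Fisher's exact test (two-sided), with Benjamini-Hochberg adjustment, called 0 (0%) of the 90 families that reached it, 3 had an unadjusted p under 0.05, and the smallest adjusted p was 0.296. Without regard to depth, with equal numbers expected in both pools, an exact binomial test called 4 of the 90, and 15 before adjustment. These counts do not include pogo.

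The 3 pool-specific loci were weakly supported. The one at 3R 24594824 to 24594877, inside *mld* (molting defective, a zinc-finger protein needed to make ecdysone), had 2 reads in the piwi-sKD pool and 2 reads in each of flies 3, 9 and 10. The one at 2R 17325, outside any gene span, had 2 reads in the piwi-sKD pool and was in no fly. The no-KD locus, at 2L 21540581 to 21540612 in the histone pseudogene His-Psi:CR33867, had 3 reads and was in no fly either. Each of the 3 thus stood within 1 read of the lowest support a list can hold. Positions are on dm6 as listed, and since the lists do not say where counting starts, a position can be 1 base off.

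Support was then compared between the pools for the 48 pogo loci with at least 20 reads over both, after scaling by the ratio of all supporting reads of the pools (1.24). The median ratio, piwi-sKD pool over no-KD pool, was 1.00 (quartiles 0.908 and 1.10, lowest 0.346, highest 2.12), and over 1055 loci of other families it was 0.988 (0.808 and 1.21). Support was at least 2-fold higher in the piwi-sKD pool for 2 pogo loci, where over all families 26 of 1103 loci (2.36%) were past that fold. It was at least 2-fold lower for 1 pogo locus, where over all families 23 of 1103 (2.09%) were. These 3 of 48 loci are too few to set apart from the other families.

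The locus at 2L 4345784 to 4346206, outside any gene span, had 35 reads in the piwi-sKD pool against 14 in the no-KD pool, a scaled ratio of 2.02 (exact conditional 95% interval 1.06 to 4.07). The locus at 2L 11633705 to 11633814, also outside genes, had 21 and 8 reads in the same order, a ratio of 2.12 (0.903 to 5.54). The lower one, at 4 1024013 to 1024648 in *PlexA*, which codes for a semaphorin receptor of growing axons, had 9 reads in the piwi-sKD pool against 21 in the no-KD pool, a ratio of 0.346 (0.140 to 0.789). The interval left out 1 for 4 of the 48 pogo loci (8.33%), compared with 44 of 1055 other loci (4.17%). The other 2 of these 4 were 2R 17474874 to 17475257, which covers one end each of the neighbours *qkr54B* and *insb* (41 reads in the piwi-sKD pool against 58 in the no-KD pool, ratio 0.571), and 3L 10594228 to 10594787 outside genes (63 and 30 reads, ratio 1.70).

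The most read pogo locus was 2R 11764003 to 11765471, inside *ths* (thisbe, a fibroblast growth factor of the embryonic mesoderm), with 149 reads in the piwi-sKD pool against 121 in the no-KD pool. At 3R 16108265 to 16108837, outside any gene span, there were 116 and 70 reads in these pools. At 2R 6648233 to 6648750, which overlaps one end of the Bcl-2 family gene *Debcl* and lies mostly outside it, there were 90 and 95. At 3L 23250373 to 23250870, inside the acetylcholine receptor subunit gene *nAChRalpha4*, there were 100 and 77, and at 3R 15231791 to 15232309, which overlaps one end of *tefu*, the fly ATM kinase gene, in the same way, 94 and 75. All 5 were well read in both pools, and none was past 2-fold after scaling.

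**Figure D2:**
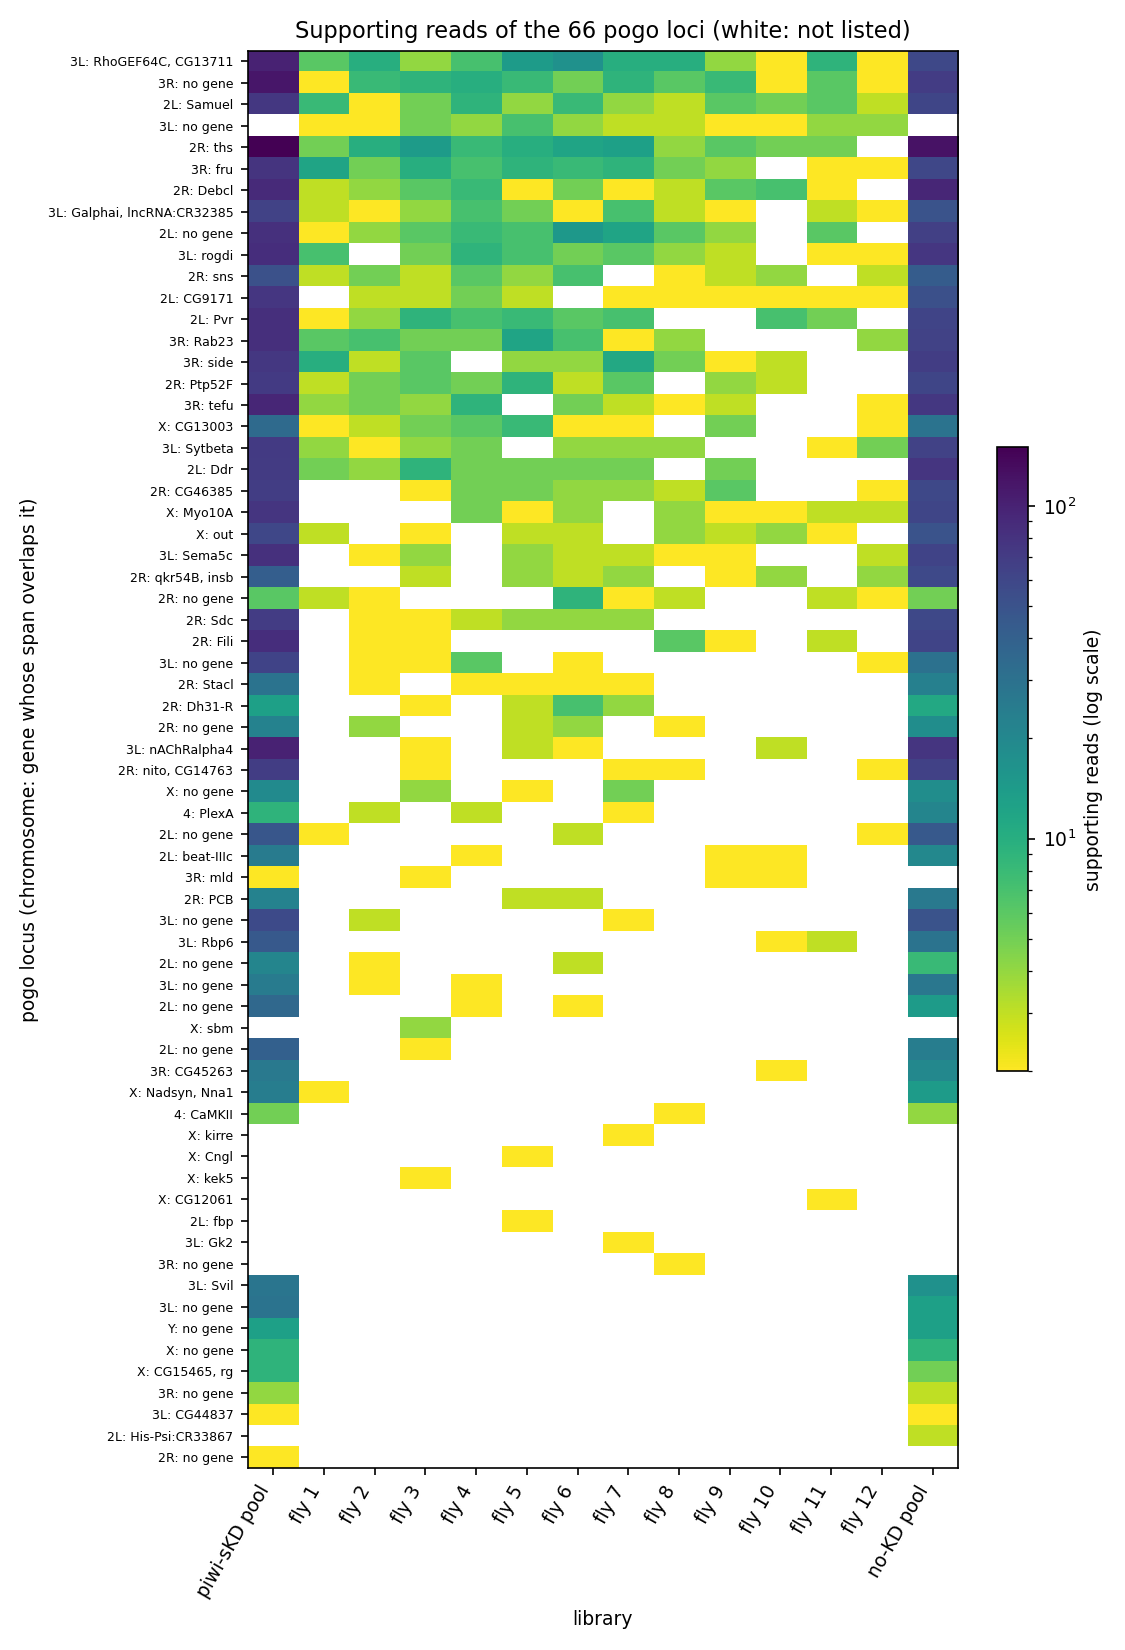
Each row is 1 of the 66 pogo loci, named by its chromosome and the gene whose span overlaps it, and each column a library, with supporting reads as colour on a log scale and white where the locus was not listed. Rows run from loci in 12 flies at the top to loci in no fly at the bottom, and the 4th row, a 3L locus outside genes, is filled in every fly and empty in both pools.

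The next question was how many of the 12 flies held each locus. Of the 66 pogo loci, 9 were in no fly (13.6%), 12 in 1 fly (18.2%), 26 in 2 to 8 flies and 19 in 9 to 12 flies, of which 4 (6.06%) were in all 12. Of the 5211 loci of other families, 54.2% were in no fly, 18.3% in 1 fly and 1.77% in all 12. A pogo locus was held by 4.92 flies on average, which ranked 4 among the 102 families, behind jockey (6.61), hobo (5.46) and R2-element (5.43). The median family was at 1.36.

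**Figure D3:**
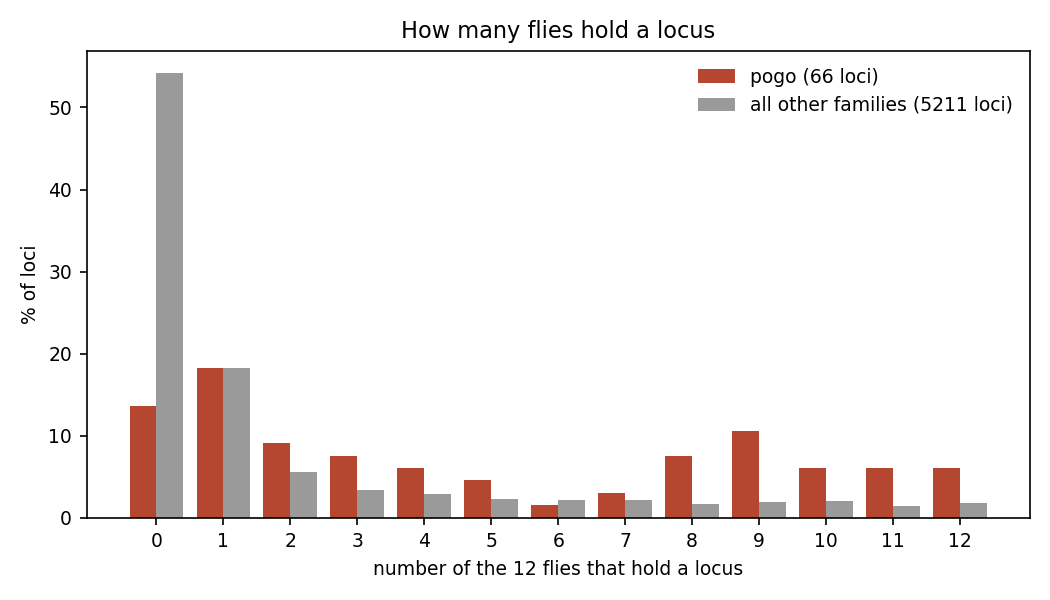
Bars give the percent of loci, vertical, against the number of the 12 flies that hold a locus, horizontal, for pogo (66 loci, left bar) and all other families (5211 loci, right bar). At 0 flies stand 13.6% of pogo loci and 54.2% of the others, and at 12 flies 6.06% and 1.77%.

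Within each fly, pogo was set against all other families of the same library. Loci found in that fly alone made up 3.64% ± 3.39 of its pogo loci and 9.98% ± 2.72 of its other loci (SD, n = 12). The share was lower for pogo in 12 of 12 flies, with a mean difference of -6.34 ± 2.77 percentage points (exact permutation test, sign flips over flies, two-sided, p = 4.88e-04, the smallest they can give, adjusted p = 7.32e-04 over 3 tests). The share of loci also held by the no-KD pool was 92.9% ± 3.18 for pogo and 78.4% ± 3.87 for the rest, higher for pogo in 12 of 12 flies, by 14.4 ± 2.88 percentage points (exact p = 4.88e-04, adjusted p = 7.32e-04). Against the other DNA transposon families alone the differences were -8.60 and 20.2 percentage points, with the same adjusted p. The flies share ancestors and are repeated looks at the same pogo loci, so these p-values may be too small. Pogo was also chosen by its loci in these same lists, so the tests describe these flies and are no independent support.

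The median support of a locus of a fly averaged 3.46 ± 0.891 reads for pogo and 2.83 ± 0.389 for the rest (SD, n = 12). It was higher for pogo in 6 flies and equal in 6, by 0.625 ± 0.772 reads (exact permutation test, p = 0.0312, adjusted p = 0.0312). This call was lost when any one of flies 3, 4, 5, 6, 7 and 10 was left out (difference 0.455 to 0.591 reads, adjusted p = 0.0625). Of the loci of a fly, 33.6% ± 13.4 for pogo and 44.4% ± 5.28 for the rest stood at 2 reads (SD, n = 12). The share of loci found in a fly alone and the share held by the no-KD pool went one way in all 12 flies. The 6 flies with equal medians therefore could not have differed in these shares, and they tell nothing about support. An equal median does not make the support of pogo and the rest equal. The part of support in these shares was not tested.

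The loci in all 12 flies were 4. At 3L 4757955 to 4758688, where the spans of *RhoGEF64C* and CG13711 overlap, a fly had 2 to 17 reads (median 8), and the pools had 100 (piwi-sKD) and 59 reads (no-KD). At 3R 16108265 to 16108837, named above, which lies 2595 bp from *Akt* and 7324 bp from *Sb*, a fly had 2 to 10 reads (median 7). At 2L 11054455 to 11054921, inside *Samuel*, a fly had 2 to 9 reads (median 5), with 74 reads in the piwi-sKD pool against 61 in the no-KD pool. These 3 were thus found in all 14 libraries. The *ths* locus was in 11 flies with 4 to 14 reads (median 8) and was not listed in fly 12.

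The remaining locus of the 4 was in every fly and in neither pool. It lies at 3L 3051804 to 3051993, outside any gene span, 39 bp from CG32485 and 521 bp from CG1271. Flies 1 to 12 had 2, 2, 5, 4, 7, 4, 3, 3, 2, 2, 4 and 4 reads there, 42 in all, and the pools had none listed. Fly 5 was highest, and 4 flies stood at the 2-read minimum. Among the 16 pogo loci with at least 40 reads over the flies, the other 15 had 94 to 270 reads over the pools. Over all families 96 loci were in all 12 flies, and 4 of these were in neither pool. The other 3 were a foldback (FB) locus and a pair of G6 loci, all on X. None of the 4 pogo loci had 3 reads or more in every fly.

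Pogo loci in 1 fly were 12, of which 4 were in both pools and 8 in neither. The 4 also read in both pools lie on X in *Nadsyn* and *Nna1* (fly 1), on 2L outside genes (fly 3), on 3R in CG45263 (fly 10) and on chromosome 4 in *CaMKII*, a calcium-dependent kinase (fly 8), each at 2 reads in its fly. The 8 seen in 1 fly only were spread over 5 flies. The best supported was X 14589918, inside *sbm*, an amino acid transporter gene, with 4 reads in fly 3. The other 7 had 2 reads each. On X they were in *kirre* (fly 7), *Cngl* (fly 5), *kek5* (fly 3) and CG12061 (fly 11). On the autosomes they were in *fbp* (fly 5), which codes for a gluconeogenic phosphatase, in the glycerol kinase gene *Gk2* (fly 7) and outside genes on 3R (fly 8). Apart from the *sbm* locus, these single-fly loci rest on the lowest support a list can hold.

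Of these 8 loci 5 were on X, a split noticed after the values were seen. Over all 66 loci, 5 of 12 on X and 4 of 54 elsewhere were in neither pool. Over all chromosomes it was 9 of 66 pogo loci and 870 of 5211 loci of other families. For other families this was not counted by chromosome, so the X split of pogo has nothing to be set against. By chromosome pogo loci lay 12 on X (18.2%, against 16.2% of loci of other families), 12 on 2L (18.2%, 11.4%), 15 on 2R (22.7%, 20.1%), 15 on 3L (22.7%, 21.5%), 9 on 3R (13.6%, 20.4%), 2 on chromosome 4 (3.03%, 3.05%) and 1 on Y (1.52%, 6.58%). The Y locus had 13 reads in each pool and was in no fly.

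The span of a RefSeq gene overlapped 47 of the 66 pogo loci, or 71.2% (Wilson 95% interval 59.4 to 80.7), against 52.1% (50.7 to 53.4) of loci of other families, mitochondrial loci left out. A pogo locus is longer than most others, as given below, and longer loci meet a gene more easily under this rule. By the midpoint of a locus, a rule chosen after seeing the data, it was 45 of 66 (68.2%, 56.2 to 78.2), against 51.5% (50.1 to 52.8), and 43 pogo loci (65.2%, 53.1 to 75.5) lay wholly inside a gene span, against 50.9% (49.5 to 52.2). Among loci held by both pools the midpoint lay in a gene span for 36 of 54 (66.7%, 53.4 to 77.8), against 49.8% (47.7 to 51.9). The table used gives no exons, so exon, intron and UTR were not told apart. No gene overlapped more than 1 pogo locus. Loci in at least 9 flies lay in genes of many kinds, among them *fru*, the transcription factor of courtship behaviour (11 flies), *Galphai*, a G protein subunit (11 flies), and *sns*, an adhesion protein of myoblast fusion (10 flies).

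Pool support went with the number of flies. Over the 57 loci in a pool, Spearman's rho between summed pool reads and number of flies was 0.799, given as a description because loci share libraries and depth. The 26 loci with 100 pool reads or more were in 8.65 flies on average (2 to 12), the 9 with 50 to 99 reads in 4.89 flies (1 to 10), and the 22 with fewer in 1.64 flies (0 to 7). Some loci stood off this order. The *nAChRalpha4* locus, with 100 reads in the piwi-sKD pool against 77 in the no-KD pool, was in 4 flies, and a 3L locus outside genes at 826137 to 826456, with 57 and 50 reads, was in 2. The 2R locus at 5055459 to 5056029 had 6 and 5 reads in the pools and was in 7 flies, with up to 9 reads in a fly. The 9 loci in no fly had 2 to 45 reads over the pools.

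**Figure D4:**
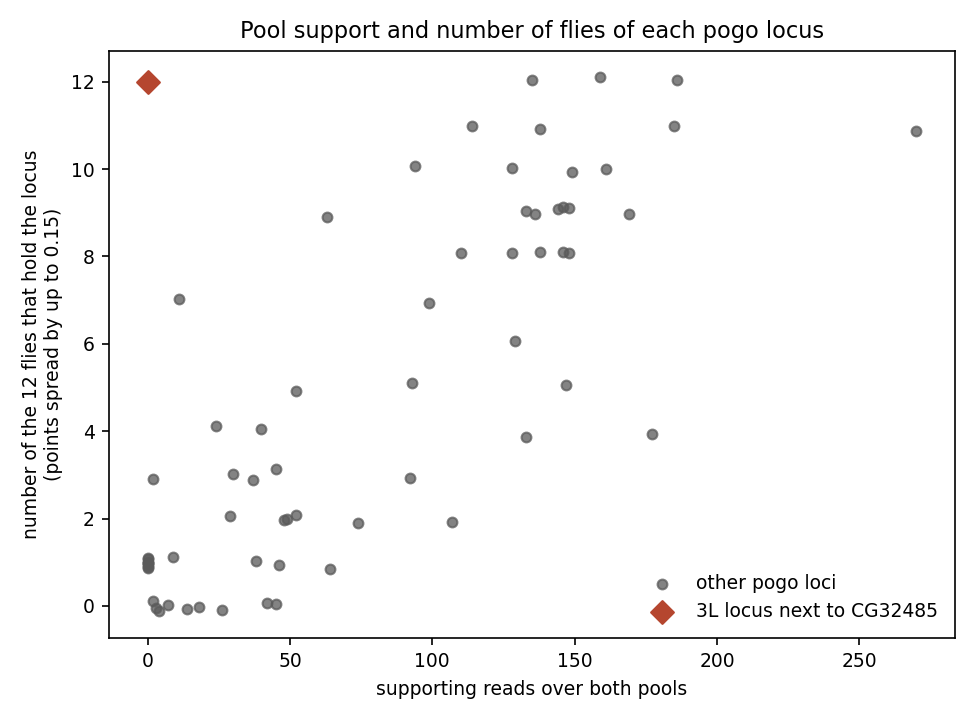
Each point is a pogo locus, with its supporting reads summed over both pools (horizontal) and the number of the 12 flies that hold it (vertical, spread slightly to show ties). The diamond is the 3L locus next to CG32485, with 0 listed pool reads and 12 flies, while the other 3 loci in all flies had 135 to 186 pool reads.

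One pogo locus was listed as several break points in the pools. It held 3.75 records on average in the piwi-sKD pool against 3.67 in the no-KD pool, against 1.37 and 1.39 for other families, and its listed positions spanned a median of 364 bp in the piwi-sKD pool and 387 bp in the no-KD pool, against 1 bp for other families in both. The 2 best supported records of a locus lay 214 bp apart (median) in the piwi-sKD pool against 226 bp apart in the no-KD pool. In the flies a pogo locus held 1.21 records and spanned a median of 9 bp, against 1.13 records and 1 bp for other families. There 81.2% of pogo loci and 88.8% of other loci were a single record. Median support of a pool locus was 49.0 (piwi-sKD) and 45.0 reads (no-KD) for pogo, against 4 and 5 for other families. Over the flies this median averaged 3.46 reads for pogo and 2.83 for the rest. A record needs 2 reads, so a locus at 2 reads can hold only 1 record. The part of support in the records and span of a locus was not tested. Over all libraries pogo had 12.2 records per locus, rank 2 of the 102 families after R2-element (12.4), where the median family had 3.14. This count adds up the records of all libraries, so it also grows with the number of libraries that list a locus and with their depth.

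Around the centre of a locus the reads of the flies were packed more closely than those of the pools. Within 100 bp of the centre lay 58.3% of the pogo reads of the piwi-sKD pool, 95.1% of those of the flies and 50.5% of those of the no-KD pool. Within 200 bp it was 92.0%, 99.4% and 90.9%. The *ths* locus, with a span of 1469 bp, was left out of this count, and the other loci spanned at most 734 bp. Sequencing site, read length and depth differ between pools and flies. The median support of a pogo locus was 49.0 reads in the piwi-sKD pool, 45.0 in the no-KD pool and 3.46 on average in the flies. Break points under 2 reads are not listed, so weak ones listed in a pool can be missing from a fly. The part of each of these in the spread cannot be told apart from the animals.

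**Figure D5:**
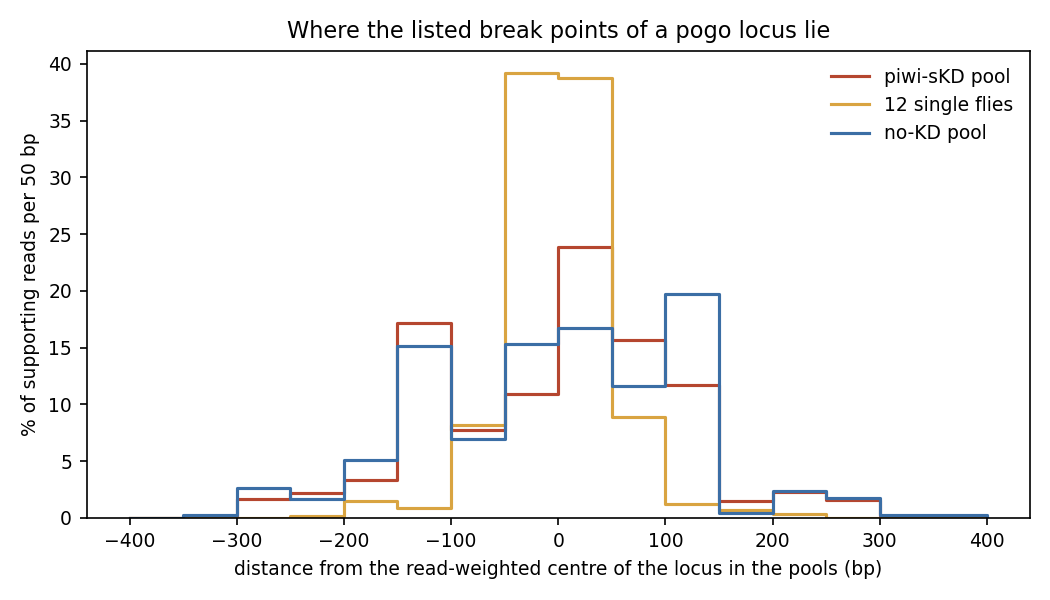
Lines give the percent of pogo supporting reads per 50 bp, vertical, against the distance in bp from the read-weighted centre of a locus in the pools, horizontal, for the piwi-sKD pool, the 12 flies together and the no-KD pool. The flies form a single narrow peak with 95.1% of reads within 100 bp, and both pools (58.3% and 50.5%) are broader.

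The families whose share of loci over the 14 libraries was most like that of pogo were jockey (Spearman's rho = 0.780), R2-element (0.723) and INE-1 (0.705), among families with at least 10 loci. The pools and the flies differed in the pogo share of loci, as given above, and the likeness was not computed within either kind of library. In the other families of the Tc1/mariner superfamily the share of pool loci held by both pools was 25.0% to 42.9%, against the 94.7% of pogo, with 41.9% for S-element, 42.9% for Tc1, 41.4% for HB and 37.5% for Bari1.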

How the data were processed

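Genomic DNA was sequenced from 1 piwi-sKD pool, 12 single flies and 1 no-KD pool. The authors mapped reads to dm6 with BWA (0.7.5a-r405 for the pools, 0.7.10-r789 for the flies) and used T-lex de novo to call insertions that the reference lacks, a tool that gathers clipped and one-end-mapped reads and matches them to TE ends. The deposited support is a read count of at least 2 for the flies and the piwi-sKD pool. The authors deposited the no-KD support as a scaled signal. All its values (100%) are whole multiples of 1.23 within 1e-06, so it was divided by 1.23. The factor was read from the values.

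Loci were built with gaps of up to 500 bp. The no-KD pool and the piwi-sKD pool entered at full depth. Pogo loci named were the 5 in most flies, the 5 best supported in 1 fly, in 1 pool and over the pools, and those in genes holding 2 or more loci or a locus of all 12 flies, and others named were chosen after their values were seen. The family, the lists of DNA transposons and the tests were chosen with earlier results of these data known. Pool-specific loci were compared per family (at least 5 such loci) by Fisher's exact test, and flies by exact sign flips (4096) or 100000 permutations, with Benjamini-Hochberg adjustment. The test code was tried on simulated lists. Genes came from the RefSeq table of the same release, where 53 symbols matched pogo loci. Flies numbered 1 to 12 are separate animals. Alternatives were gaps of 20, 100 and 1000 bp, 3-read records, chromosome arms only, other matching rules and each fly left out. TA dinucleotides and sequences were not analysed here, since they need the genome. Python 3.11.15, numpy 2.4.6, pandas 2.3.3, scipy 1.17.1 and matplotlib 3.10.9 were used.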

Additional observations from a re-analysis of the deposited data

How the results depend on the processing

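Under all 19 alternatives the private share of pogo stayed below that of the rest with an adjusted p under 0.05, and the no-KD share of pogo stayed above that of the rest and the correlation over flies above 0, each under 18 alternatives with an adjusted p under 0.05. Most of these alternatives leave out 1 fly. Both shares went one way in 12 of 12 flies, so leaving out 1 fly could not turn them. Pogo was chosen by its loci in these same lists, so this tally is no independent support. The difference in median support was 0.5 reads with a gap of 20 bp (adjusted p = 0.0625, exact permutation test), 0.125 with records of 3 reads or more (0.750) and 0.542 against the other DNA families (0.109). With each fly left out in turn it was 0.455 to 0.682 (adjusted p = 0.0312 to 0.0625), the private-share difference -7.60 to -5.72, the no-KD-share difference 14 to 15.0, r 0.676 to 0.820, loci per fly 26.4 to 27.8, and loci in every remaining fly 4 to 6 (6 without fly 10 or fly 12). Loci in all flies were 2 with a gap of 20 bp and 0 with records of 3 reads or more. An alternative chosen after seeing the data, 3 reads over a locus in each fly, also gave 0. Loci per fly were 17.2 ± 6.21 with records of 3 reads or more. The share of pool loci in both pools, whose alternatives were also chosen after seeing the data, was 50.2% with a gap of 20 bp and 73.9% with 100 bp. Pool-specific pogo loci were 61 in the piwi-sKD pool against 62 in the no-KD pool at 20 bp, a ratio of 0.984 (Fisher's exact test, adjusted p = 0.791), and 19 and 16 at 100 bp, a ratio of 1.19 (adjusted p = 1.00). With records of 3 reads or more they were 1 and 2 in the same order, which turns the ratio of the pools, and with absence from the flies also asked for they were 1 and 1. Single records were also matched between the pools within 20 bp, the window of the study. Pogo records without a pogo partner were 77 (piwi-sKD) and 68 (no-KD), a ratio of 1.13 (Fisher's exact test, adjusted p = 0.998). Without a partner of any family they were 77 and 67, a ratio of 1.15 (Fisher's exact test, unadjusted p = 0.348). The cause of these shifts was not tested beyond what each setting does, since a smaller gap splits a locus into its break points and a higher minimum removes weak ones. A family minimum of 20 and the exact binomial test gave no value for pogo, which stayed under the minimum. No paired analysis was possible because there is 1 library per pool and the replicate numbers exist among the flies alone. A locus needs 2 reads to be listed, so at the depth of a fly its absence there was not detectable with certainty.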

Other observations

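Among the other DNA transposons with at least 10 loci, the share of pool loci held by both pools was 98.0% for hobo, above the 94.7% of pogo, and 77.1% for the foldback element FB and 35.1% for hopper, below it. P-element, with 8 loci, was at 85.7%.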
